A study of Homo sapiens with 4 samples.

Results

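Described here are 10 genes reported as targets of the MLL-AF9 fusion outside the HOXA cluster: PBX3, MEF2C, MYB, CDK6, JMJD1C, RUNX2, ZEB2, SATB1, LMO2 and EYA1. They were taken by symbol from a table of 27800 gene symbols, and all 10 were found. The cells were MOLM-13, a human acute myeloid leukaemia line that carries the KMT2A-MLLT3 (MLL-AF9) fusion, so both groups share the fusion and the line. One group received lentiviral CRISPR-Cas9 with a guide against the acetyltransferase gene KAT6A (sgKAT6A, 2 libraries), and the other received lentiviral CRISPR-Cas9 labelled EV (2 libraries). The sources used here do not give the guide, the content of EV, the harvest time, or whether cells were cloned or pooled. The comparison asks how the transcripts of these reported targets stood after KAT6A was targeted.

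The MLL-AF9 protein joins the DNA-binding end of KMT2A to MLLT3, which brings the elongation machinery and the histone methyltransferase DOT1L to the genes it occupies. Many of its targets are regulators that act in blood progenitors and that the leukaemia keeps transcribed. The 10 genes fall into homeodomain and DNA-binding regulators (PBX3, MEF2C, MYB, RUNX2, ZEB2), organizers and cofactors of chromatin (SATB1, LMO2, JMJD1C, EYA1) and a cell cycle kinase (CDK6). KAT6A, also called MOZ, acetylates histone H3 as part of a complex built on BRPF scaffold proteins.

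Promoter windows are shown for the genes whose groups did not overlap in the comparison that follows and whose window holds no annotated exon base. These are MYB and SATB1, both sgKAT6A libraries being under both EV libraries, and JMJD1C, the reverse. MEF2C, the other gene without overlap, has 152 exon bases in its window and is not shown. Each window is the 250 bases upstream of the gene's most 5′ RefSeq start on GRCh38.p14, written 5′ to 3′ on the gene's strand, with capitals for any of the 10 motifs searched. MYB is at chr6:135181058-135181307 on the plus strand, SATB1 at chr3:18445593-18445842 on the minus strand and JMJD1C at chr10:63521891-63522140 on the minus strand.
MYB: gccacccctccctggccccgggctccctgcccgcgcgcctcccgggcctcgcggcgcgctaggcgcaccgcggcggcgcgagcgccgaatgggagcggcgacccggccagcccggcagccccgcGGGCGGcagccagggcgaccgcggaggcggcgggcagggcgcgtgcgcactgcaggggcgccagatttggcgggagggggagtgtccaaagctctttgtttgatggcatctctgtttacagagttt
SATB1: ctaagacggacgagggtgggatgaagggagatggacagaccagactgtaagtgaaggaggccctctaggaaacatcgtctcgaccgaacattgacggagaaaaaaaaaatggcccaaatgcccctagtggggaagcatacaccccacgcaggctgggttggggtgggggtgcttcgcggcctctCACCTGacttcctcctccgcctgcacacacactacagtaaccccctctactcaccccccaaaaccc
JMJD1C: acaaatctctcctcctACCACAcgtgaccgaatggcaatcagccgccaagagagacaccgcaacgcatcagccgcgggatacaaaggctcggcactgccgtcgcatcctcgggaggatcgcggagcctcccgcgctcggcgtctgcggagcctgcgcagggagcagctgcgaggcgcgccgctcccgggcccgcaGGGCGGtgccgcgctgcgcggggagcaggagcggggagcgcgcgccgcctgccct

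The capitals mark a GC box (GGGCGG) in MYB, an E-box of the kind ZEB factors bind (CACCTG) in SATB1, and in JMJD1C a RUNX motif (TGTGGT, on the opposite strand) and a GC box. Both strands were searched, and the share of the 8610 promoters of protein-coding genes tested that hold each motif was 67.6% for the GC box, 15.3% for the E-box and 7.9% for the RUNX motif. The other motifs searched were a PBX and HOX composite (TGATTNAT, in 1.0% of promoters), MEIS (TGACAG, 10.7%), MYB (AACNGNC, 28.1%), the MEF2 motif (1.7%), the motif of GATA factors (AGATAA, 4.2%), the CCAAT box (35.6%) and E2F (TTTCCCGC, 2.4%). Windows were matched for 8 of the 10 genes, all but LMO2 and EYA1. In those windows MEIS letters lay in PBX3 and MEF2C, MYB letters in PBX3, where they overlap a GC box, RUNX letters in JMJD1C and RUNX2, E-box letters in MEF2C and SATB1, GC boxes in PBX3, MYB, CDK6 and JMJD1C, and CCAAT letters in MEF2C. CpG content was lowest in RUNX2 (0 CpG), MEF2C (6) and SATB1 (10). It was highest in PBX3 (36), JMJD1C (35) and MYB (34), against a median of 21 over all these promoters. Annotated exon bases (GENCODE 29) filled all 250 bases of the ZEB2 window. They filled 173 bases in RUNX2, 152 in MEF2C, 21 in CDK6 and 1 in PBX3. The ZEB2 and PBX3 windows lie inside the GENCODE gene spans given below, so they are not upstream of those starts. MYB, JMJD1C and SATB1 differ in base composition, with 75.6%, 72.0% and 57.2% G and C.

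The genes are long. In GENCODE 29 on GRCh38 they span a median of 203.6 kb, against 30.0 kb over 10711 protein-coding genes tested. The shortest are LMO2 (chromosome 11, 33858576 to 33892289, minus strand, 33.7 kb) and MYB (chromosome 6, 135181315 to 135219173, plus strand, 37.9 kb). MEF2C lies on chromosome 5 (88717117 to 88904257, minus strand), SATB1 on chromosome 3 (18345387 to 18445588, minus strand) and JMJD1C on chromosome 10 (63167221 to 63521850, minus strand). PBX3 lies on chromosome 9 (125747345 to 125967377, plus strand), CDK6 on chromosome 7 (92604921 to 92836594, minus strand), RUNX2 on chromosome 6 (45328157 to 45664349, plus strand) and ZEB2 on chromosome 2 (144364364 to 144524583, minus strand). EYA1, the longest at 394.6 kb, lies on chromosome 8 (71197433 to 71592025, minus strand).

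Expression is in TPM, a library's transcripts per gene and unit of length on a total of 1000000, so levels of different genes can be set side by side. TPM keeps no read depth, so no counting interval was computed, and 12082 to 12630 genes reached 1 TPM in a library. The libraries of a group stood far apart. Among protein-coding genes tested, 541 differed more than 2-fold between the sgKAT6A libraries and 444 between the EV libraries. By contrast, 113 did between sgKAT6A and EV replicate 1, and 207 between sgKAT6A and EV replicate 2. The 18S ribosomal RNA symbol was at 340 TPM in the library of sgKAT6A replicate 2, against 10401 to 13751 TPM elsewhere. Protein-coding genes took 77.9% and 78.2% of the sgKAT6A libraries and 81.2% and 81.7% of the EV libraries. The targeted gene was lower in sgKAT6A, with KAT6A at 12.2 and 10.8 TPM in sgKAT6A cells against 16.2 and 16.7 TPM in EV (log2 difference -0.48 ± 0.13 SE, adjusted p = 0.784 by limma). The labels do not say whether replicates were separate cultures, and p-values here reflect no more than the spread among the 4 libraries, and an exact permutation of 2 against 2 cannot give a two-sided p below 0.333.

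MOLM-13 identity genes were present. Most B cell, erythroid and megakaryocyte, and stromal and epithelial markers stayed below 1 TPM, while most T and NK cell markers did not. All 10 genes listed for monoblastic leukaemia were above the filter, among them CD33 at 115 and 99.2 TPM in sgKAT6A cells and 107 and 107 TPM in EV. Of the 7 B cell markers, 6 stayed below 1 TPM in every library. Of the 7 T and NK cell markers found, 3 stayed below 1 TPM, and NKG7, a cytotoxic granule gene, was at 122 and 208 TPM in sgKAT6A cells and 93.1 and 151 TPM in EV. CD3D was between 5.65 and 11.5 TPM over the libraries and NCAM1 between 8.72 and 10.7 TPM. Of the 9 erythroid and megakaryocyte markers, 6 stayed below 1 TPM, while the globin HBB was at 188 and 61.1 TPM in sgKAT6A cells and 38.6 and 192 TPM in EV. HBA1 was between 67.4 and 201 TPM over the libraries and EPOR between 9.17 and 14.3 TPM. Of 6 stromal and epithelial markers, 4 stayed below 1 TPM, and PECAM1, which myeloid cells also carry, was the highest of the list. CD34, the progenitor antigen, was listed at 0 in every library.

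LMO2 and MYB were the most abundant of the target genes and EYA1 was close to absent. LMO2 averaged 123 TPM and MYB 121 TPM over the 4 libraries, above 93.1% and 92.9% of the protein-coding genes that passed the filter (mean over the 4 libraries of 1 TPM or more). Their ranges overlapped, from 119 to 128 TPM for LMO2 and from 94.0 to 141 TPM for MYB. SATB1 (32.9 TPM), PBX3 (29.8), CDK6 (27.5), MEF2C (26.1) and ZEB2 (25.4) came next in mean level, and each overlapped its neighbour in that order. JMJD1C (19.6 TPM) and RUNX2 (13.1 TPM) lay below these with no overlap of ranges. EYA1 was between 0.0396 and 0.152 TPM in every library, under that filter. Thus 9 of the 10 genes were tested.

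**Figure D1:**
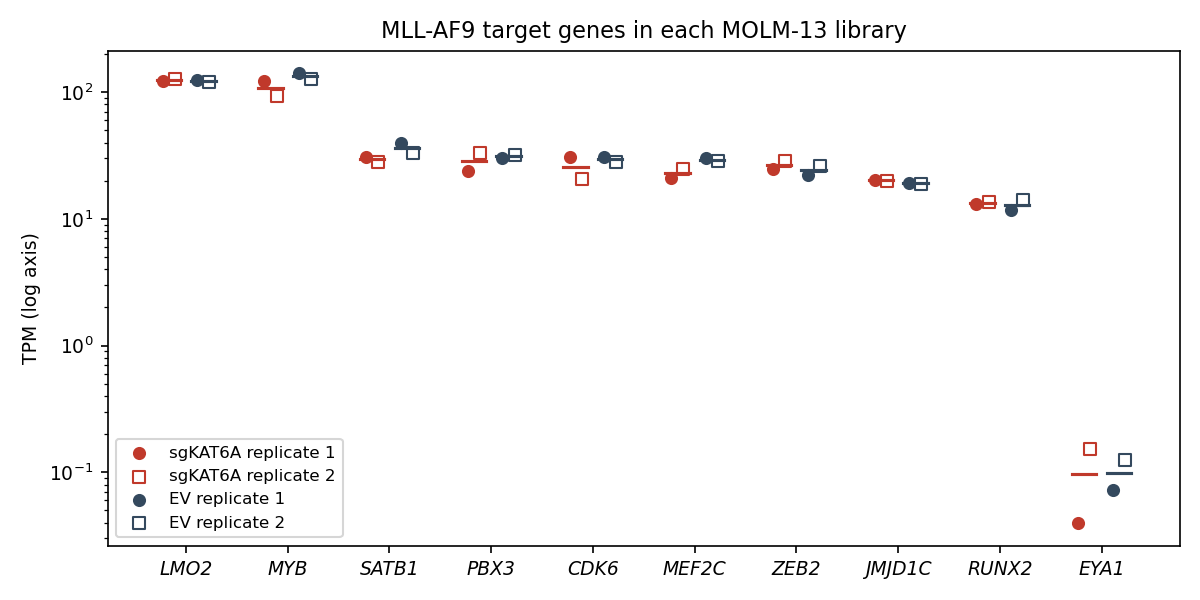
TPM (log axis) of the 10 target genes in each library, ordered by mean level. Points are libraries, sgKAT6A in red to the left of EV in dark blue, and bars are group means. EYA1 alone lies under 1 TPM, and MYB, SATB1 and MEF2C have both sgKAT6A points below both EV points.

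None of the 9 genes tested passed the threshold between sgKAT6A and EV, an adjusted p of 0.05 by limma on log2(TPM + 1). Of all 12603 genes tested, 0% passed, and 3.64% had an unadjusted p under 0.05, while 0 of the 9 target genes did. In these bulk samples fewer cells with a transcript cannot be told apart from less of it per cell. Of the 9, 3 were lower with no overlap of libraries (MEF2C, MYB and SATB1), against 23.2% of all genes tested, and 1 was higher (JMJD1C), against 14.4%. The 3 lower and 1 higher are therefore near what the background gives for 9 genes. The median log2 difference over the 9 was -0.14, against -0.02 over all genes tested, and it was 0.07 without sgKAT6A replicate 1 and 0.00 without sgKAT6A replicate 2. The difference exceeded the gap between libraries in both groups for MEF2C, SATB1 and JMJD1C, 3 of 9, against 23.7% of all genes tested. Within both replicate numbers 4 genes were lower (MEF2C, MYB, SATB1 and CDK6, the last by 0.00 within number 1), against 36.2% of all genes tested, and 2 were higher (JMJD1C and ZEB2), against 32.0%.

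**Figure D2:**
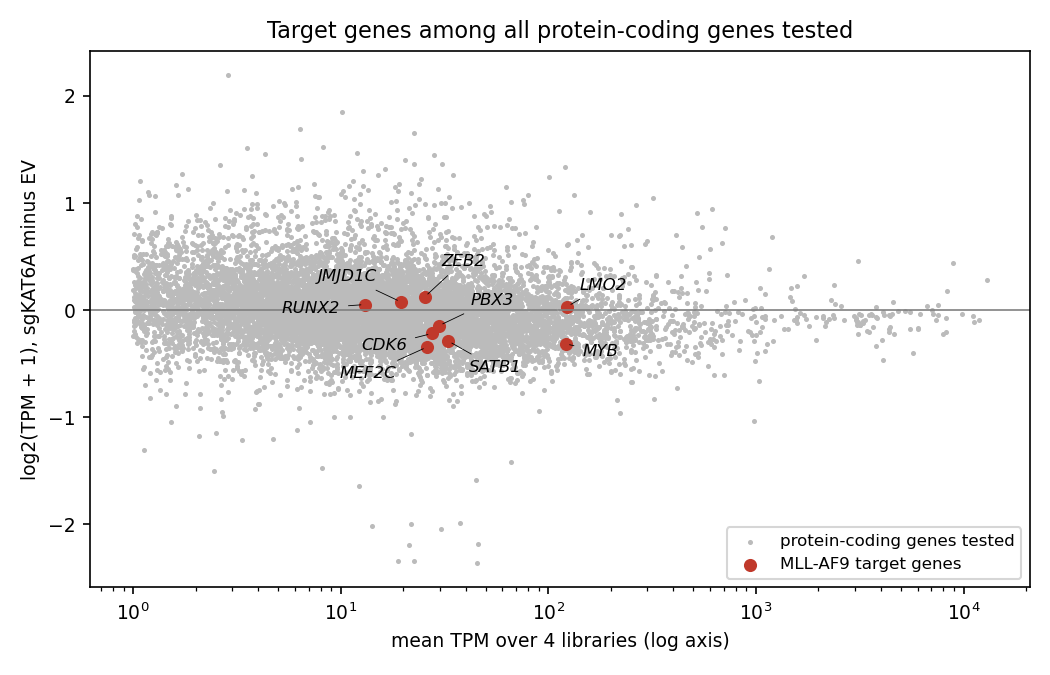
Log2 difference (sgKAT6A minus EV) against mean TPM (log axis) for every protein-coding gene tested in grey and the 9 target genes tested in red. The target genes lie between -0.34 (MEF2C) and 0.12 (ZEB2), inside the cloud of other genes.

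The counts without overlap moved with the scaling of the libraries. With protein-coding genes alone rescaled to a common total, 16.2% of all genes were lower and 19.5% higher without overlap. MEF2C and SATB1 were then the genes lower without overlap, MYB no longer was, and JMJD1C and LMO2 were higher. Median-of-ratios scaling gave 18.0% lower and 18.3% higher, and quantile normalization 19.4% lower and 15.3% higher, with the groups of MYB overlapping in both.

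MEF2C, a MADS-box factor that directs monocytic and lymphoid fates, had the largest difference of the 9 with all 4 libraries. It was at 21.2 and 24.7 TPM in sgKAT6A cells against 30.1 and 28.5 TPM in EV. The higher sgKAT6A library stayed below the lower EV library. The means were 22.9 ± 2.47 TPM in sgKAT6A cells and 29.3 ± 1.11 TPM in EV (SD, n = 2 each), a ratio of 0.783. On the log2 scale the difference was -0.34 ± 0.14 (SE), and the 95% interval ran from -0.72 to 0.04 (adjusted p = 0.784 by limma). Within replicate number 1 the difference was -0.49 and within number 2 it was -0.20. Leaving out a library moved it between -0.45 and -0.24, and without sgKAT6A replicate 1 or EV replicate 2 the differences of MYB and SATB1 were larger than its own.

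MEF2 factors are restrained by class IIa histone deacetylases, which kinases of the SIK family control in turn, and MEF2C was not the main family member by level. Its paralog MEF2D was at 87.6 and 66.0 TPM in sgKAT6A cells and 92.7 and 83.6 TPM in EV, above MEF2C in every library, while MEF2A stayed between 5.73 and 7.69 TPM and MEF2B between 2.77 and 3.05 TPM. Of the 12 genes of this group tested, 0 passed, 0 were lower and 4 were higher in sgKAT6A without overlap (HDAC4, MEF2B, SIK2 and MAPK7), with a median difference of 0.15. Over all genes tested 23.2% were lower and 14.4% higher. The count of 4 higher became 10 without EV replicate 2, where 39.2% of all genes were higher, and 8 without sgKAT6A replicate 1, where 36.7% were. HDAC4, a class IIa deacetylase, was at 8.59 and 9.31 TPM in sgKAT6A cells against 7.37 and 7.47 TPM in EV. HDAC7, of the same class, was at 16.2 and 21.5 TPM in sgKAT6A cells and 12.7 and 16.4 TPM in EV, where the groups overlap. HDAC5 was at 17.1 and 26.8 TPM in sgKAT6A cells against 12.8 and 18.6 TPM in EV, and the kinase SIK3 at 11.3 and 14.3 TPM in sgKAT6A cells against 7.69 and 11.8 TPM in EV, again with overlap.

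MYB, the progenitor transcription factor that recruits the coactivators p300 and CBP, was at 123 and 94.0 TPM in sgKAT6A cells against 141 and 127 TPM in EV. The groups did not overlap, but sgKAT6A replicate 1 came within a few TPM of EV replicate 2. The means were 108 ± 20.2 TPM in sgKAT6A cells and 134 ± 10.3 TPM in EV (SD, n = 2 each), a ratio of 0.809. On the log2 scale the difference was -0.31 ± 0.18 (SE), interval -0.81 to 0.18 (adjusted p = 0.784 by limma), and the gap between the sgKAT6A libraries (replicate 2 minus 1) was wider, at -0.38. Without sgKAT6A replicate 2 the MYB difference was -0.12, and without sgKAT6A replicate 1 it was -0.50. Genes that MYB is known to activate were mixed. Of 9 tested, 0 passed, 2 were lower (BCL2 and GFI1) and 2 higher (MYADM and ADA) without overlap. The shares over all genes tested were 23.2% lower and 14.4% higher. The median of these 9 was -0.23. BCL2, the survival gene, was at 23.9 and 18.7 TPM in sgKAT6A cells against 33.3 and 25.2 TPM in EV. GFI1, a transcriptional repressor needed for granulocyte development, was at 39.0 and 34.5 TPM in sgKAT6A cells against 46.9 and 45.5 TPM in EV. MYADM was at 77.3 and 80.8 TPM in sgKAT6A cells against 71.2 and 59.2 TPM in EV, and ADA, adenosine deaminase, at 62.2 and 65.5 TPM in sgKAT6A cells against 48.4 and 58.8 TPM in EV.

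Of the MYB family, the cell cycle paralog MYBL2 was at 68.7 and 62.4 TPM in sgKAT6A cells against 87.1 and 93.0 TPM in EV (log2 difference -0.45, adjusted p = 0.784 by limma). MYBL1 stayed near 1 TPM in both groups and was not tested. The coactivator CREBBP was at 17.7 and 13.9 TPM in sgKAT6A cells against 12.8 and 13.1 TPM in EV, without overlap. EP300 was at 22.1 and 15.3 TPM in sgKAT6A cells and 15.0 and 16.1 TPM in EV, and TAF12, a TFIID subunit, at 39.3 and 34.6 TPM in sgKAT6A cells and 30.0 and 38.6 TPM in EV, both with overlap. Of these 4 genes tested, 0 passed, 1 was lower and 1 higher without overlap, against 23.2% lower and 14.4% higher over all genes tested.

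SATB1, a chromatin-looping protein best known from T lymphocytes, was at 30.9 and 28.1 TPM in sgKAT6A cells against 39.7 and 33.0 TPM in EV. Both sgKAT6A libraries lay below both EV libraries. The log2 difference was -0.29 ± 0.15 (SE), interval -0.71 to 0.13 (adjusted p = 0.784 by limma). Leaving out EV replicate 1 gave -0.16, and leaving out EV replicate 2 gave -0.42. The partner deacetylase HDAC1 was at 121 and 129 TPM in sgKAT6A cells and 121 and 139 TPM in EV, with overlap. The acetyltransferase KAT2B was at 2.52 and 3.32 TPM in sgKAT6A cells against 1.55 and 2.11 TPM in EV. Of these 2 partners, 0 passed.

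**Figure D3:**
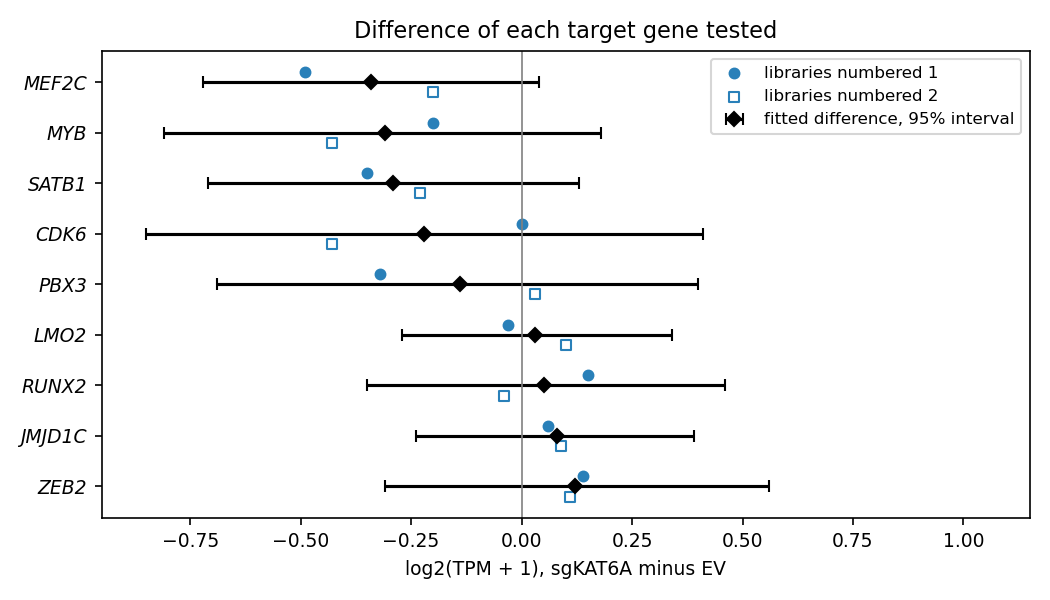
Difference in log2(TPM + 1), sgKAT6A minus EV, for the 9 target genes tested. Diamonds with bars are the limma estimates with 95% intervals, and the blue points are the differences within each replicate number. Every interval includes 0, and MEF2C, MYB and SATB1 have both blue points left of 0.

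CDK6 and PBX3 overlapped between the groups, and in each a single sgKAT6A library was low. CDK6, the kinase that D cyclins activate to phosphorylate RB1, was at 30.6 and 20.7 TPM in sgKAT6A cells and 30.7 and 28.2 TPM in EV. Only sgKAT6A replicate 2 was low. The log2 difference was -0.22 ± 0.23 (SE), interval -0.85 to 0.41 (adjusted p = 0.805 by limma), and it was 0.05 without that library and -0.49 without sgKAT6A replicate 1. PBX3, the homeodomain partner of HOXA9 and MEIS1, was at 23.9 and 32.9 TPM in sgKAT6A cells and 30.1 and 32.2 TPM in EV. Here sgKAT6A replicate 1 was low. Its log2 difference was -0.14 ± 0.19 (SE), interval -0.69 to 0.40 (adjusted p = 0.845 by limma), and it was 0.08 without that library and -0.37 without sgKAT6A replicate 2.

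Of the CDK6 partners, inhibitors and substrates, 10 were tested and 0 passed. In sgKAT6A 3 were lower (CDK4, CCND2 and RBL1) and 0 higher without overlap, against 23.2% lower and 14.4% higher over all genes tested. CDK4, the paralog with the same cyclins, was at 73.2 and 56.5 TPM in sgKAT6A cells against 95.6 and 80.7 TPM in EV, above CDK6 in every library. CCND2, cyclin D2, was at 3.26 and 2.82 TPM in sgKAT6A cells against 4.38 and 3.69 TPM in EV. CCND3, cyclin D3, was the most abundant D cyclin and overlapped between groups. It was at 183 and 202 TPM in sgKAT6A cells and 197 and 207 TPM in EV. The RB family gene RBL1 was at 11.9 and 10.7 TPM in sgKAT6A cells against 12.6 and 14.3 TPM in EV. RBL2, of the same family, was at 34.9 and 39.9 TPM in sgKAT6A cells and 28.9 and 35.2 TPM in EV, with overlap. The inhibitors CDKN2A and CDKN2B were at most 0.0588 TPM in any library, while other inhibitors were present and overlapped between groups. CDKN2C was between 71.1 and 111 TPM, CDKN2D between 15.2 and 25.6 TPM, CDKN1A between 222 and 337 TPM and CDKN1B between 24.3 and 38.2 TPM.

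E2F target genes, the replication genes that E2F factors activate once RB1 is phosphorylated, had values in one direction. Of 16 tested, 0 passed, 13 were lower and 0 higher without overlap, against 23.2% lower and 14.4% higher over all genes tested, with a median of -0.30. The count was 13 under protein-coding rescaling as well, against 16.2% of all genes, and 14 to 15 with a library left out, against 33.1% to 44.1%. MCM2, a helicase subunit, was at 71.9 and 60.5 TPM in sgKAT6A cells against 93.3 and 89.3 TPM in EV, and its partner MCM3 at 98.1 and 92.1 TPM in sgKAT6A cells against 119 and 123 TPM in EV. MCM7 was at 161 and 134 TPM in sgKAT6A cells against 200.3 and 193 TPM in EV, and MCM6 at 51.3 and 36.2 TPM in sgKAT6A cells against 68.9 and 60.6 TPM in EV.

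For PBX3, the paralog PBX2 was the more abundant, at 52.1 and 66.9 TPM in sgKAT6A cells and 46.2 and 60.6 TPM in EV, while PBX4 stayed below 1 TPM. Its partner HOXA9 was at 42.8 and 49.5 TPM in sgKAT6A cells against 54.7 and 51.7 TPM in EV (log2 difference -0.21, adjusted p = 0.784 by limma). MEIS1 was at 7.41 and 11.1 TPM in sgKAT6A cells and 9.46 and 11.2 TPM in EV, and like PBX3 it was low in sgKAT6A replicate 1. Within replicate number 1 the difference was -0.32 for PBX3, -0.35 for HOXA9 and -0.32 for MEIS1, and within number 2 it was 0.03, -0.06 and -0.01. Of the PBX3 partners and paralogs, 5 were tested and 0 passed. Without overlap 1 was lower (HOXA9) and 1 higher (MEIS3), against 23.2% lower and 14.4% higher over all genes tested. MEIS3 was at 0.922 and 2.27 TPM in sgKAT6A cells against 0.475 and 0.610 TPM in EV. With an EV mean of 0.543 TPM it passed the filter only through sgKAT6A, which favours the higher direction, so its place in the count carries no weight. PKNOX1, a further TALE factor, was between 2.98 and 4.22 TPM. Of the 8 HOXA and MEIS1 genes tested, 3 were lower (HOXA5, HOXA9 and HOXA11) and 0 higher without overlap, against 23.2% lower and 14.4% higher over all genes tested. HOXA11 was at 5.71 and 6.19 TPM in sgKAT6A cells against 7.90 and 6.51 TPM in EV, and HOXA5 at 1.98 and 3.03 TPM in sgKAT6A cells against 3.37 and 3.25 TPM in EV. With median-of-ratios scaling 1 of these 8 was lower, against 18.0% of all genes, and without sgKAT6A replicate 2 the number was 6, against 33.1%.

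**Figure D4:**
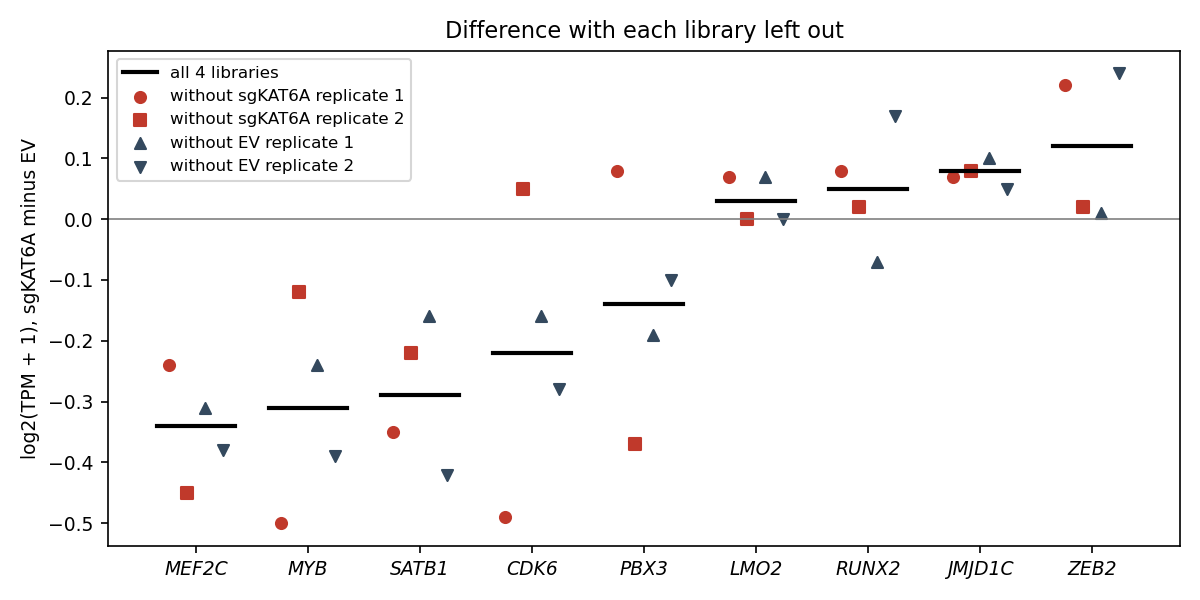
Difference in log2(TPM + 1), sgKAT6A minus EV, of the 9 genes with all 4 libraries (black bars) and with each library left out (points). MEF2C, MYB and SATB1 stay below 0 in every case, CDK6, PBX3 and RUNX2 cross 0, and JMJD1C stays between 0.05 and 0.10.

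JMJD1C, LMO2, RUNX2 and ZEB2 differed little. JMJD1C, a Jumonji C protein of the KDM3 family that is required by MLL-AF9 leukaemia models, was at 20.2 and 20.0 TPM in sgKAT6A cells against 19.4 and 18.7 TPM in EV. Both sgKAT6A libraries were above both EV libraries, by less than 2 TPM. The log2 difference was 0.08 ± 0.11 (SE), interval -0.24 to 0.39 (adjusted p = 0.859 by limma). Its paralogs KDM3B, between 24.1 and 28.3 TPM, and KDM3A, at 12.9 and 19.5 TPM in sgKAT6A cells and 11.4 and 13.6 TPM in EV, overlapped between groups, and 0 of these 2 genes passed.

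LMO2, the LIM-only adaptor that bridges LYL1 or TAL1 to LDB1 and GATA factors, was at 122 and 128 TPM in sgKAT6A cells and 125 and 119 TPM in EV. The groups overlapped, and the log2 difference was 0.03 ± 0.11 (SE), interval -0.27 to 0.34 (adjusted p = 0.93 by limma). Of its 7 partners and paralogs tested, 0 passed, 1 was lower (TCF12) and 0 higher without overlap. The shares over all genes tested were 23.2% lower and 14.4% higher. LYL1 was at 68.3 and 55.8 TPM in sgKAT6A cells and 63.7 and 53.8 TPM in EV, while TAL1 and GATA1 stayed below 1 TPM. GATA2 was between 3.57 and 5.10 TPM over the libraries, with overlap. TCF3, the E protein partner, was at 50.0 and 44.0 TPM in sgKAT6A cells and 60.1 and 50.0 TPM in EV, TCF12 at 23.7 and 22.2 TPM in sgKAT6A cells against 25.2 and 24.9 TPM in EV, and SSBP3 at 15.4 and 17.8 TPM in sgKAT6A cells and 11.5 and 15.4 TPM in EV.

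RUNX2, a core binding factor subunit best known from bone, was at 13.1 and 13.6 TPM in sgKAT6A cells and 11.7 and 14.0 TPM in EV. Both sgKAT6A libraries lay between the EV libraries. Its log2 difference was 0.05 ± 0.14 (SE), interval -0.35 to 0.46 (adjusted p = 0.922 by limma), and -0.07 without EV replicate 1. RUNX1 was the more abundant paralog, at 35.6 and 32.8 TPM in sgKAT6A cells and 36.4 and 32.9 TPM in EV. RUNX3 was at 15.96 and 27.0 TPM in sgKAT6A cells and 12.4 and 21.3 TPM in EV, and the shared partner CBFB was between 40.8 and 44.1 TPM. Of these 3 genes tested, 0 passed and all overlapped.

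ZEB2, a zinc-finger repressor expressed in monocytes and dendritic cells, was at 24.6 and 28.4 TPM in sgKAT6A cells and 22.3 and 26.3 TPM in EV. In each group the library numbered 2 was higher, and the groups overlapped. Its log2 difference was 0.12 ± 0.15 (SE), interval -0.31 to 0.56 (adjusted p = 0.832 by limma), 0.01 without EV replicate 1 and 0.24 without EV replicate 2. ZEB1, the paralog, was at 1.14 and 0.452 TPM in sgKAT6A cells and 1.12 and 0.993 TPM in EV. Of the 5 ZEB2 partners tested, 0 passed. Without overlap 3 were lower (KDM1A, CTBP1 and CTBP2) and 1 higher (RCOR1), against 23.2% lower and 14.4% higher over all genes tested. KDM1A, the histone demethylase of the corepressor complex, was at 40.8 and 38.01 TPM in sgKAT6A cells against 45.4 and 49.6 TPM in EV. CTBP2 was at 17.1 and 17.1 TPM in sgKAT6A cells against 20.1 and 20.1 TPM in EV, RCOR1 at 20.6 and 21.4 TPM in sgKAT6A cells against 18.5 and 19.8 TPM in EV, and ID2 at 42.1 and 69.6 TPM in sgKAT6A cells and 39.5 and 52.9 TPM in EV.

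EYA1, a coactivator and phosphatase that works with homeodomain proteins, was at 0.0396 and 0.152 TPM in sgKAT6A cells and 0.0725 and 0.126 TPM in EV. The groups overlapped, and at this level no fold was formed. EYA3 was the family member present, at 12.02 and 13.6 TPM in sgKAT6A cells and 12.98 and 15.5 TPM in EV, while EYA2 and EYA4 were listed at 0 throughout. SIX5 was at 2.65 and 3.52 TPM in sgKAT6A cells against 1.95 and 2.59 TPM in EV, and the corepressor DACH1 at 14.6 and 14.3 TPM in sgKAT6A cells against 19.8 and 17.5 TPM in EV. Of these 3 genes tested, 0 passed, 1 was lower (DACH1) and 1 higher (SIX5) without overlap. The shares over all genes tested were 23.2% lower and 14.4% higher.

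Other genes reported as KMT2A fusion targets outside HOXA formed a list of 24. Of the 18 tested, 0 passed, 8 were lower and 2 higher (ARID2 and SUPT3H) without overlap, against 23.2% lower and 14.4% higher over all genes tested. Their median was -0.18, against -0.02 over all genes. After protein-coding rescaling 7 were lower and 3 higher, where 16.2% of all genes were lower and 19.5% higher. FLT3, the receptor kinase, was at 46.2 and 42.9 TPM in sgKAT6A cells against 61.0 and 59.4 TPM in EV (log2 difference -0.43). LAMP5, a lysosome-associated protein, was at 183 and 123 TPM in sgKAT6A cells against 319.7 and 227 TPM in EV (log2 difference -0.83). BCL2 and GFI1, given above with MYB, were the next by p, and adjusted p was 0.784 by limma for all 4. ERG and PROM1 were listed at 0 in every library, and MECOM, IKZF2, NRIP1 and HMGA2 stayed below 1 TPM like EYA1. Several genes stand in more than 1 of the lists, among them MEIS1, HOXA9, BCL2, GFI1, MYC and FLT3, so the counts are not independent.

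Of 18 genes of the KMT2A complex and the cofactors that act with the fusion, 0 passed, 5 were lower, KAT6A among them, and 2 higher without overlap, with a median of -0.05. WDR5, a core subunit, was at 42.4 and 32.3 TPM in sgKAT6A cells against 48.4 and 45.4 TPM in EV. MEN1, encoding menin, was at 28.1 and 22.1 TPM in sgKAT6A cells against 33.7 and 28.5 TPM in EV, and CCNT1, the elongation cyclin, at 9.65 and 7.86 TPM in sgKAT6A cells against 10.4 and 10.2 TPM in EV. Over all genes tested 23.2% were lower and 14.4% higher. After protein-coding rescaling 3 of the 18 were lower and 4 higher, against 16.2% and 19.5% of all genes. Leaving out a library gave 9 lower without sgKAT6A replicate 1, EV replicate 1 or EV replicate 2, where 44.1%, 37.7% and 35.7% of all genes were lower.

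**Figure D5:**
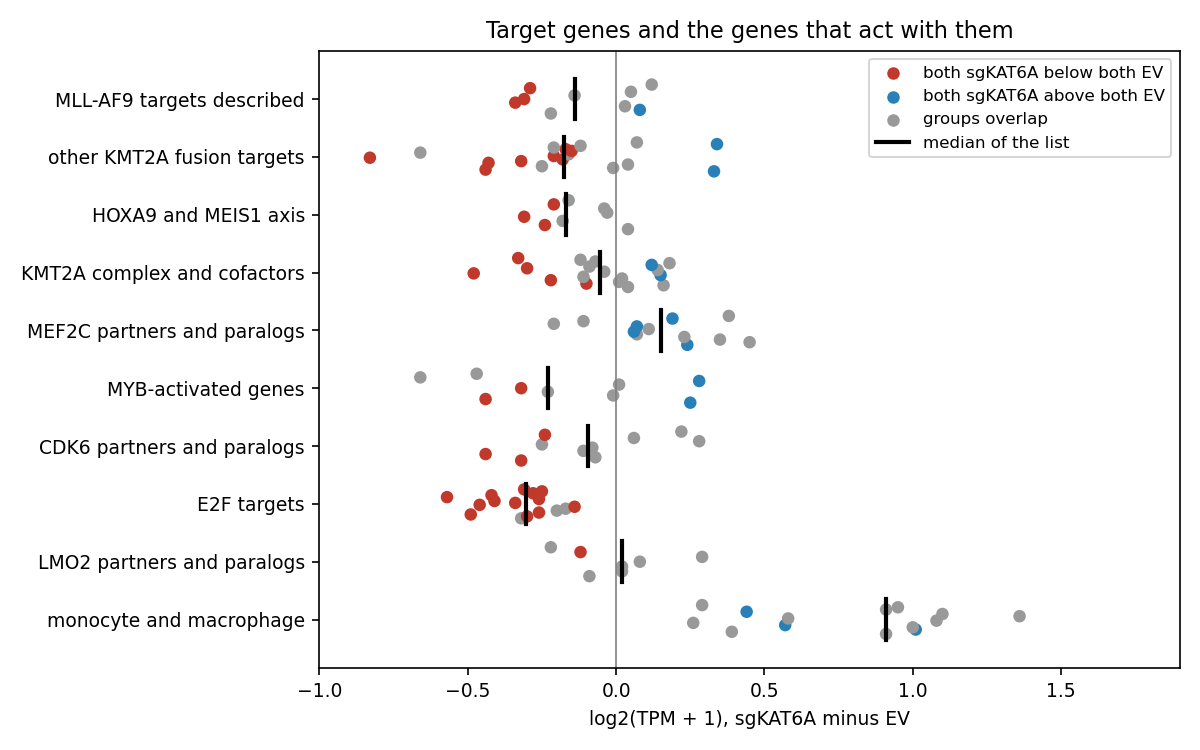
Difference in log2(TPM + 1), sgKAT6A minus EV, of every gene tested in the target genes described and in the lists beside them. Points are genes, red where both sgKAT6A libraries lie below both EV libraries and blue where both lie above, and black bars are medians. The E2F targets lie left of 0 (median -0.30) and the monocyte and macrophage markers right of 0 (median 0.91), and the 9 target genes, with a median of -0.14, lie on both sides of 0.

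Monocyte and macrophage markers were higher by median in sgKAT6A, within each replicate number too, and they also varied widely between libraries of a group. Of the 14 tested, 0 passed, 0 were lower and 3 higher without overlap (LYZ, CD86 and CTSS). The shares over all genes tested were 23.2% lower and 14.4% higher. All 14 markers were higher within both replicate numbers, against 32.0% of all genes tested. Among them FCGR3A (means of 2.83 TPM in sgKAT6A cells and 0.474 TPM in EV) passed the filter only through sgKAT6A, which favours that direction. Their medians were 0.80 within number 1 and 0.77 within number 2. Their median difference was 0.91, against gaps of 1.11 between sgKAT6A replicates 2 and 1 and 1.23 between EV replicates 2 and 1. Their summed level was 12205 and 12122 TPM in sgKAT6A cells and 7667 and 9757 TPM in EV, most of it LYZ. CD14, the lipopolysaccharide co-receptor, was at 3.04 and 54.3 TPM in sgKAT6A cells and 1.08 and 29.3 TPM in EV. ITGAM, the CD11b gene, was at 12.3 and 52.1 TPM in sgKAT6A cells and 3.74 and 21.5 TPM in EV. Leaving out EV replicate 1 gave a median of 0.23, sgKAT6A replicate 2 one of 0.29, sgKAT6A replicate 1 one of 1.48 and EV replicate 2 one of 1.64. Of the 8 granulocyte markers tested, 0 passed, 0 were lower and 1 higher (CAMP) without overlap, against the same shares over all genes. The granulocyte median was -0.02. The part of these markers in the differences of the target genes was not tested.

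The target genes also varied with the replicate number. In both groups the library numbered 2 had less MYB (log2 gap -0.38 in sgKAT6A and -0.16 in EV), less CDK6 (-0.54 in sgKAT6A and -0.12 in EV) and less SATB1 (-0.13 in sgKAT6A and -0.26 in EV). It had more PBX3 (0.44 in sgKAT6A and 0.09 in EV), ZEB2 (0.20 in sgKAT6A and 0.23 in EV) and RUNX2 (0.06 in sgKAT6A and 0.24 in EV), and these are the libraries with more CD14 and ITGAM. MEF2C, LMO2 and JMJD1C did not share a direction or moved by at most 0.05. Over the 9 genes the root mean square difference was 0.288 between the sgKAT6A libraries and 0.162 between the EV libraries. It was 0.246 between the libraries numbered 1 and 0.233 between those numbered 2. By the root mean square distance of log2 values centred on each gene's mean over the 4 libraries, the closest pairs were JMJD1C and LMO2 (0.0353), RUNX2 and ZEB2 (0.0625) and MYB and CDK6 (0.0763). MYB was also the closest to SATB1 (0.0949), SATB1 to MEF2C (0.141) and MEF2C to PBX3 (0.142). Such distances over 4 libraries share library composition and describe these libraries only.

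Several target genes overlap other transcripts, and no source used here says whether counting used strand, so reads of such pairs may not be separable. MEF2C-AS2, antisense to the 3′ end of MEF2C, was at 2.47 and 9.09 TPM in sgKAT6A cells and 4.80 and 4.37 TPM in EV, and MEF2C-AS1 was at 2.32 and 1.45 TPM in sgKAT6A cells and 2.17 and 2.63 TPM in EV. ZEB2-AS1 was at 5.73 and 3.20 TPM in sgKAT6A cells against 0.949 and 2.60 TPM in EV, with no overlap. SATB1-AS1 was between 8.17 and 9.56 TPM, and TBC1D5, which overlaps SATB1 on its own strand, was at 23.5 and 20.7 TPM in sgKAT6A cells and 21.0 and 20.1 TPM in EV. JMJD1C-AS1 was at 3.98 and 3.40 TPM in sgKAT6A cells and 6.30 and 3.84 TPM in EV, with overlap. REEP3, antisense to the start of JMJD1C, was at 9.01 and 10.1 TPM in sgKAT6A cells against 12.3 and 11.1 TPM in EV. Its span also covers the JMJD1C promoter window shown, and the span of SATB1-AS1 covers the SATB1 window shown. SUPT3H, antisense to the start of RUNX2, was at 2.59 and 3.97 TPM in sgKAT6A cells against 2.22 and 2.43 TPM in EV.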

How the data were processed

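Total RNA of 4 MOLM-13 libraries was sequenced, and each library was assigned to sgKAT6A or EV by its title. The authors deposited TPM values by gene symbol in 1 table. Salmon and hg38 are named in the submitters' processing notes, while no source used here gives the Salmon version, annotation, strand setting or filters. Each library sums to 1000000, and 6449 symbols are 0 in every library.

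Values were used without further scaling as log2(TPM + 1), which understates changes of low genes. The 12603 genes averaging 1 TPM or more went into limma 3.58.1 under R 4.3.3 (empirical Bayes with a mean-variance trend, two-sided, Benjamini-Hochberg over all genes tested, threshold 0.05). The code was checked on simulated data. That check required recovery only of large planted changes at a spread far below that of these libraries. It does not show that differences of the size seen here could be detected. No set test was used, and lists are described by counts and medians. Gene classes came from RefSeq, which matched 12384 of the genes tested.

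The target genes and lists were chosen with earlier results of these data known. All target genes, and up to 4 genes per list by smallest unadjusted p, are named. Paralogs, absent genes, genes without overlap and some other list members were added after values were seen. Alternatives were pseudocounts of 0.1 and 5, no filter or one at 5 TPM, quantile normalization, median-of-ratios scaling, protein-coding genes rescaled, no variance trend, each library left out and a replicate block. Figures used matplotlib 3.10.9.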

Additional observations from a re-analysis of the deposited data

How the results depend on the processing

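MEF2C, MYB, SATB1, JMJD1C, ZEB2 and LMO2 kept the sign of their difference under all 13 alternatives, and none of the 9 genes passed under any of them. With a library left out, the difference ranged from -0.07 to 0.17 for RUNX2, from -0.37 to 0.08 for PBX3 and from -0.49 to 0.05 for CDK6, changing sign in each. The median over the 9 genes ranged from -0.16 to 0.07 with a library left out, and was -0.11 with median-of-ratios scaling, -0.11 with quantile normalization, -0.09 with protein-coding rescaling and -0.07 with no filter. The number of target genes lower without overlap ran from 2 to 4. The number higher was 3 with quantile normalization (JMJD1C, ZEB2 and LMO2) and 2 with protein-coding rescaling. It was from 1 to 4 with a library left out, where 3 libraries make separation easier. In those fits 33.1% to 44.1% of all genes were lower and 19.5% to 39.2% higher. The genes called over the whole table were 0 under every setting without a block, also with each library left out, and 15 with the replicate block, where the smallest adjusted p of a target gene was 0.226 by limma. The libraries share only a number, since the labels do not pair them, and the deviations of same-numbered libraries correlated with r = 0.455 across 12603 genes. A fit without 1 library assumes that the lone library of a group varies like the other group. Depth is unknown, so the precision of low values such as EYA1 cannot be given.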
